A study of Homo sapiens with 8 samples.

Results

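The DNA replication genes are 48 genes whose products license, fire, copy and repackage the genome in S phase. They were selected by gene symbol, with no cut-off on measured values but with earlier results of these data known. All 48 were found among the 60234 genes listed, each under 1 Ensembl identifier. The cells were Rh41, an established human line of alveolar rhabdomyosarcoma, a muscle-like soft-tissue tumour, and all 8 libraries came from this line, which carries the PAX3-FOXO1 fusion. A control group of 4 libraries was compared with 4 libraries labelled siG9a, in which G9a had been knocked down. The sample labels name an siRNA-type knockdown and the series title a short-hairpin one, and the labels do not describe the control reagent, the time after knockdown or the cultures behind each library. The series design calls the replicates biological. If they were not separate cultures, the p-values measure only the spread between these libraries. Expression was measured by QuantSeq, which counts reads at the 3′ ends of polyadenylated transcripts, so its values do not scale with transcript length. They are in CPM, a gene's reads as a share of all reads assigned to genes in that library, scaled to the same total in every library. Libraries held 1458825 to 1938665 reads, and 1 read was worth 0.516 to 0.685 CPM.

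A replication origin is marked by the origin recognition complex (ORC1 to ORC6). CDC6 and CDT1 then load the ring-shaped MCM2-7 helicase, and geminin (GMNN) blocks CDT1 once S phase has begun. The kinase CDC7, MCM10, CDC45 and the GINS complex turn the loaded helicase into an active one. Primase and DNA polymerase alpha lay down primers, polymerases delta and epsilon extend them on the sliding clamp PCNA, which the RFC complex loads, and RPA coats the exposed single strands. FEN1 trims the flaps of Okazaki fragments and LIG1 seals them. Ribonucleotide reductase (RRM1 with RRM2), thymidylate synthase (TYMS) and thymidine kinase (TK1) supply nucleotides, and CHAF1A and CHAF1B place new histones behind the fork. Many of these genes are switched on at the G1/S boundary by E2F transcription factors. G9a, the histone H3 lysine 9 methyltransferase encoded by EHMT2, has been described at replication foci together with the maintenance DNA methyltransferase DNMT1.

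The promoters of the set are shown because E2F factors are textbook activators of many of these genes. RefSeq promoter sequences (build GRCh38.p14) were matched by symbol for 42 of the 48 genes, and MCM4, MCM5, GINS4, POLD3, RPA2 and RPA3 were not matched. The search covered the 250 bases before each listed start, on both strands, for TTTCCCGC, TTTCGCGC, TTTGCCGC or TTTGGCGC. Such a match was present for 15 of 42 genes (35.7%), against 3.40% of the 27305 genes in the same table. Those 27305 genes were not limited to genes expressed here and were not matched in base composition. The 15 were ORC3, CDT1, GMNN, MCM3, MCM6, MCM7, CDC7, GINS2, POLA1, POLA2, POLE, RFC3, PCNA, LIG1 and TYMS. MCM6 held 4 matches, in pairs that overlap on opposite strands. The letters CCAAT, on either strand, were found for 25 of 42 (59.5%, all genes 37.00%), and TTTGAA for 1 of 42 (2.38%, all genes 16.1%). A match is a description of letters, not a shown binding site. Nor does a missing match show that E2F factors do not act on a gene, as only these exact letters in this window were searched. Windows around the match, written 5′ to 3′ on the gene's strand with the match in capitals, are given for 1 or more genes of most roles.
GMNN (chr6:24775322-24775351, plus strand): gctgggtcggtTTTGGCGCgctctcacttc
CDT1 (chr16:88803743-88803772, plus strand): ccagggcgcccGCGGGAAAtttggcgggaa
MCM3 (chr6:52284898-52284927, minus strand): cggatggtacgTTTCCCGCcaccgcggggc
CDC7 (chr1:91501033-91501062, plus strand): gtgcagttcctTTTCCCGCcccccttcgga
GINS2 (chr16:85688967-85688996, minus strand): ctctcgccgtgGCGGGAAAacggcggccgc
POLA1 (chrX:24693770-24693799, plus strand): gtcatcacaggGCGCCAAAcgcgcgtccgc
POLA2 (chr11:65261898-65261927, plus strand): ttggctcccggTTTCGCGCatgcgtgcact
RFC3 (chr13:33818083-33818112, plus strand): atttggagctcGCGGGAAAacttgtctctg
PCNA (chr20:5126663-5126692, minus strand): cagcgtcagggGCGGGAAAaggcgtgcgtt
TYMS (chr18:657603-657632, plus strand): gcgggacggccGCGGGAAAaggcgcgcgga
LIG1 (chr19:48170440-48170469, minus strand): acttcacccctTTTCCCGCcctcctcccat

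FEN1, TK1 and PRIM1, the genes whose siG9a and control values did not overlap, held no E2F match in that window. Their last 120 bases before the start are shown for that reason, with CCAAT on either strand in capitals. TK1 has 2 listed starts, and the downstream one carries 2 CCAAT matches on the opposite strand.
FEN1 (chr11:61792791-61792910, plus strand): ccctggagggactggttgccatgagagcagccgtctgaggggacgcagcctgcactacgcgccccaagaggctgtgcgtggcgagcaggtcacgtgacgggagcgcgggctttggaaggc
TK1 (chr17:78187205-78187324, minus strand): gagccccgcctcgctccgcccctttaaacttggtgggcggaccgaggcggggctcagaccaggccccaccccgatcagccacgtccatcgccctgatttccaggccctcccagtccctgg
TK1 (chr17:78187053-78187172, minus strand): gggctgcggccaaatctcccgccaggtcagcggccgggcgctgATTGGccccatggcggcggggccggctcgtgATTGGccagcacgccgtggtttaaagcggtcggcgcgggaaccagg
PRIM1 (chr12:56752324-56752443, minus strand): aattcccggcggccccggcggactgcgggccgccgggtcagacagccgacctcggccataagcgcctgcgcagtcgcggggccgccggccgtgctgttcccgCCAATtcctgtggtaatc

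EHMT2, whose symbol was listed under 7 Ensembl identifiers, was examined first, on the identifier with the highest mean CPM. It measured 57.6, 68.1, 87.3 and 88.3 CPM in control replicates 1 to 4 and 19.6, 35.1, 33.1 and 58.5 CPM in siG9a, so it was lower in 4 of 4 same-numbered pairs while siG9a replicate 4 still exceeded control replicate 1. The log2 change was −1.10 ± 0.31 (SE), with a limma adjusted p of 0.191 without and 4.72e-04 with the replicate number as a block. The mitochondrial share of reads was 4.59 to 9.18% in control and 5.21 to 13.7% in siG9a, higher in siG9a in 4 of 4 pairs, and its part in the results was not tested. The 11 rhabdomyosarcoma markers summed to 1799.8 to 1993 CPM in control and 1056 to 1537 CPM in siG9a over the libraries numbered 1, 2 and 4, and to 319 and 311 CPM in control and siG9a replicate 3. MYF5 was at 0 in every library, and 4 of the 8 markers tested (DES, CDH15, CHRNA1 and FGFR4) fell in the fit with the replicate block, where 6.52% of all genes tested fell. In that fit the fibroblast gene COL1A1 and the epithelial gene CDH1 also fell (limma adjusted p 0.0410 and 0.0171), and the CDH1 groups did not overlap. The 6 neural markers, mostly the neurofilament genes NEFM and NEFL, summed to 9606 and 8935 CPM in the replicate 3 libraries and to 184 to 2951 CPM in the others. The 6 leukocyte markers summed to at most 5.71 CPM in any library, the 6 epithelial ones to at most 75.6 CPM and the 8 fibroblast ones, mostly COL3A1 and COL1A1, to at most 409 CPM. Both replicate 3 libraries therefore stand apart, and results are given below with and without them.

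Transcripts of the replication machinery did not move together with the knockdown. Of the 48 genes, 29 had a higher and 19 a lower mean log2 level in siG9a, and the median log2 change was 0.08, against 0.01 for all 15092 genes tested. The median within same-numbered pairs was 0.30, 0.08, 0.03 and −0.00052 for replicates 1 to 4. Changes ranged from −0.84 for TK1 to 1.31 for PRIM1. Without a block, limma on log2(CPM + 1) called 0 of the 48 at an adjusted p under 0.05, where the background was 0% of all genes tested. At an unadjusted p under 0.05 there were 4 of 48 (8.33%, background 12.5%). On the whole reads recovered from the CPM, edgeR called 0 of them without a block (background 0%) and DESeq2 2, FEN1 and TK1 (background 2.59%). The same pair was called by limma with array weights, which give each library its own weight (background 2.89%).

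With the replicate number as a block, here called the paired fit, limma called 7 of the 48 (14.6%), against a background of 11.4% of all genes and 14.6% of genes at a mean of 5 CPM or more, a level that all 48 reached. The share of replication genes called was thus near the background. FEN1, PRIM1, RPA3, RRM1 and RFC4 rose (5 of 48, background 4.86%), and TK1 and MCM4 fell (2 of 48, background 6.52%). The groups did not overlap for 3 of 48 (6.25%), against 7.32% of all genes tested. FEN1 and PRIM1 were higher (background 3.88%) and TK1 was lower (background 3.45%). In 4 of 4 same-numbered pairs, 8 of the 48 were higher (16.7%, background 14.9%) and 3 were lower (6.25%, background 15.3%). A direction kept in 4 of 4 pairs, given below for single genes, is thus common among all genes tested. Without the replicate 3 pair, the paired fit called 3 of the 48, namely FEN1, RPA3 and TK1 (background in that fit 7.87%). It called 2 without pair 1 (background 6.47%), 4 without pair 2 (background 4.31%) and 3 without pair 4 (background 9.2%), and FEN1 and TK1 were among the calls in each of these fits. With the block on the recovered reads, edgeR called 6 of the 48, all of these genes but RFC4 (background 11.3%), and DESeq2 3, namely FEN1, TK1 and MCM4 (background 8.08%). For 43 of the 48, the 95% interval of the paired log2 change lay inside a 2-fold change in either direction, as it did for 67.5% of genes at a mean of 5 CPM or more. The 5 whose interval reached beyond it were PRIM1, POLE2, RPA3, FEN1 and TK1. Interval width depends on read number, and the genes at a mean of 5 CPM or more were not matched in level to the 48. In bulk RNA, fewer cells in S phase and less of a transcript per cell cannot be told apart.

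**Figure D1:**
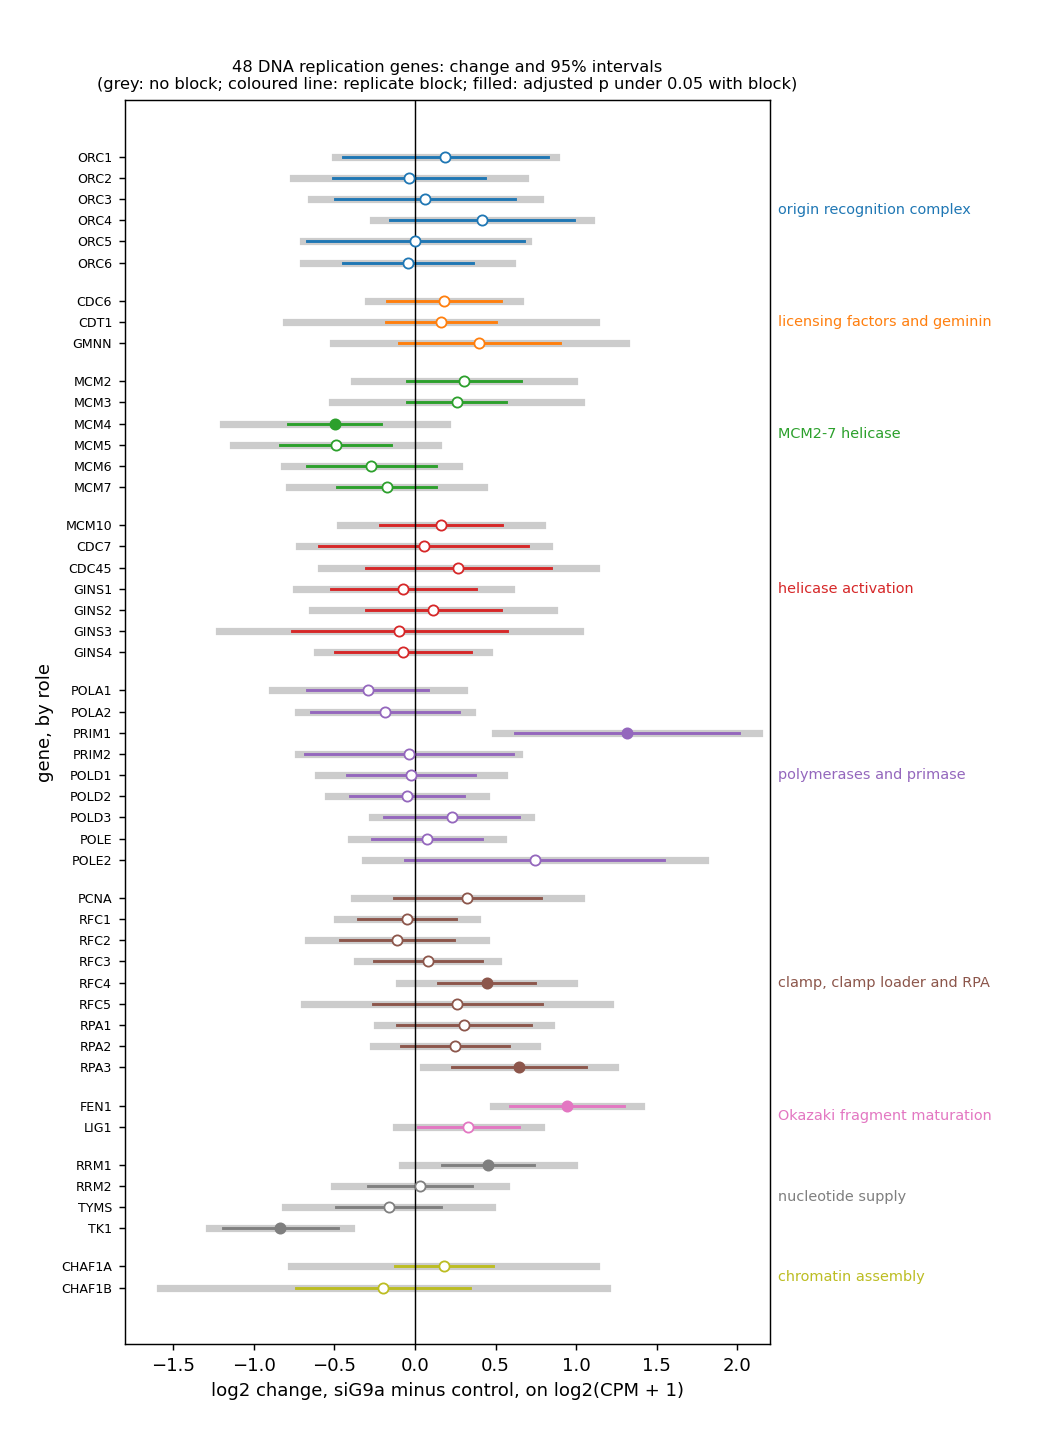
Log2 change (siG9a minus control, horizontal axis) of each of the 48 genes by role, with 95% intervals without a block (grey) and with the replicate block (coloured lines), filled where the paired adjusted p is under 0.05. Most points lie close to 0, with PRIM1 (1.31) and FEN1 (0.94) farthest to the right and TK1 (−0.84) farthest to the left.

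Mean levels over the 8 libraries ranged from 5.71 CPM for POLE2 to 421 CPM for MCM4, with a median of 57.9 CPM. After MCM4, the most abundant transcripts by 3′-end reads were RRM1 (301 CPM), TYMS (277 CPM), CHAF1A (255 CPM) and MCM7 (202 CPM). Subunits of 1 complex were far from equal on this scale. MCM2-7 ran from 57.3 CPM for MCM6 to the MCM4 value, ORC from 8.28 CPM for ORC5 to 39.5 CPM for ORC6, and GINS from 14.99 CPM for GINS3 to 39.9 CPM for GINS1. The primase pair PRIM1 and PRIM2 lay at 9.12 and 9.91 CPM over the 8 libraries, a near equality that came from averaging the groups. Their means were 4.72 and 10.025 CPM in control and 13.5 and 9.79 CPM in siG9a. These levels are those of transcripts, not of protein, and 3 reads, the smallest count read as detection, correspond to 1.55 to 2.06 CPM.

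The flap endonuclease FEN1 (ENSG00000168496) had the smallest paired adjusted p of the 48. It measured 58.95, 55.9, 69.5 and 49.3 CPM in control replicates 1 to 4 and 140.3, 92.6, 104 and 118 CPM in siG9a. Every siG9a library was above every control library. The means were 58.4 ± 8.40 and 114 ± 20.6 CPM (SD, n = 4 each), a ratio of 1.95. The log2 change was 0.94 ± 0.17 (SE) in the paired fit, with a limma adjusted p of 6.53e-04 there and 0.117 without the block. An exact two-sided permutation test of the 8 values gave p = 0.0286, the smallest that 4 against 4 allows. Groups that do not overlap always give this value, for FEN1 as for TK1 and PRIM1 below, so it adds nothing to their separation. The change was as large without both replicate 3 libraries, where limma without a block gave 1.07 with an adjusted p of 0.0215. FEN1 shares exonic positions with FADS2 on its own strand and TMEM258 on the other in GENCODE 29, and how the authors' counting treated shared positions is not given in the sources used here. LIG1, the ligase that closes the nick FEN1 leaves, measured 109.7, 131, 126 and 113 CPM in control and 108, 169, 175 and 161 CPM in siG9a. Its groups overlapped, and the paired log2 change of 0.33 ± 0.15 (SE) had a limma adjusted p of 0.171.

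Among the 4 enzymes of nucleotide supply, 1 rose, 1 fell and 2 were not called in the paired fit, where 4.86% of all genes tested rose and 6.52% fell. These 4 genes are too few to read their share against that background. Thymidine kinase TK1 (ENSG00000167900), which salvages thymidine, measured 92.5, 100.3, 113 and 123 CPM in control and 70.7, 56.9, 61.7 and 49.3 CPM in siG9a. All 4 siG9a values were below all 4 control values. The means were 107 ± 13.2 and 59.6 ± 8.94 CPM (SD, n = 4 each), a ratio of 0.558, and the log2 change was −0.84 ± 0.17 (SE) with a limma adjusted p of 0.00220 in the paired fit and 0.131 without the block (exact permutation p = 0.0286). RRM1 (ENSG00000167325), the large subunit of ribonucleotide reductase, measured 232, 215, 381 and 197 CPM in control and 348, 271, 454 and 307 CPM in siG9a. It was higher in 4 of 4 pairs, although control replicate 3 exceeded 3 of the siG9a libraries. Its log2 change was 0.45 ± 0.14 (SE), with a limma adjusted p of 0.0347 in the paired fit and 0.491 without the block. The call was lost without any single pair (adjusted p 0.0718 to 0.133 in limma). The small subunit RRM2, whose abundance is known to limit the enzyme in S phase, measured 138, 102, 90.4 and 107 CPM in control and 174, 96.2, 94.8 and 93.5 CPM in siG9a. In siG9a, replicate 1 was above every control library and the other 3 lay low in the control range, with a log2 change of 0.03 and a paired 95% interval from −0.29 to 0.35. Thymidylate synthase TYMS, the de novo route to thymidylate, measured 339, 304, 189 and 316 CPM in control and 454, 203, 182 and 231 CPM in siG9a. Its paired interval ran from −0.49 to 0.16. The ratio of TK1 to TYMS reads, which does not depend on library scaling, was 0.273, 0.330, 0.596 and 0.388 in control and 0.156, 0.280, 0.339 and 0.213 in siG9a. It was lower in siG9a in 4 of 4 pairs, in a comparison chosen after the values were seen.

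Of the 9 polymerase and primase genes, 1 rose in the paired fit and 0 fell, a share of 11.1% beside the background of 11.4%. PRIM1 (ENSG00000198056), the catalytic subunit of primase, measured 4.80, 3.04, 4.30 and 6.75 CPM in control and 17.02, 7.26, 17.1 and 12.6 CPM in siG9a. The groups did not overlap, but these values rest on 7, 5, 7 and 13 reads in control and 33, 12, 30 and 22 in siG9a, and the 95% Wilson interval of control replicate 4 (3.94 to 11.5 CPM, counting error only) included the value of siG9a replicate 2. The means were 4.72 ± 1.54 and 13.5 ± 4.66 CPM (SD, n = 4 each), a ratio of 2.86. The log2 change was 1.31 ± 0.34 (SE), on a log2(CPM + 1) scale that understates changes at such low levels, with a limma adjusted p of 0.0121 in the paired fit and 0.207 without the block (exact permutation p = 0.0286). Without the replicate 3 pair the paired limma adjusted p was 0.0732, and without pair 1 it was 0.0612. PRIM1 shares exonic positions with NACA, a neighbour on the same strand, and with HSD17B6 on the other, so its value is uncertain where reads could be split. PRIM2, the other primase subunit, measured 10.97, 10.3, 7.38 and 11.4 CPM in control and 12.9, 9.68, 9.13 and 7.46 CPM in siG9a, with a log2 change of −0.04. The ratio of PRIM1 to PRIM2 reads was 0.438, 0.294, 0.583 and 0.591 in control and 1.32, 0.750, 1.88 and 1.69 in siG9a, and these ratios, also chosen after the values were seen, did not overlap between the groups. POLE2, a subunit of polymerase epsilon and the lowest of the 48 at a mean of 5.71 CPM, measured 3.43, 1.22, 6.76 and 4.67 CPM in control and 4.13, 6.05, 14.3 and 5.16 CPM in siG9a. It was higher in 4 of 4 pairs, with a paired limma adjusted p of 0.236. The catalytic subunits POLA1 (log2 change −0.29), POLD1 (−0.02) and POLE (0.07) and the subunits POLA2 (−0.19), POLD2 (−0.05) and POLD3 (0.23) were not called in either fit.

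The 6 subunits of the MCM2-7 ring, which assemble in equal numbers, had log2 changes of both signs, and 1 of them was called in the paired fit (16.7%, background 11.4%). MCM4 (ENSG00000104738), the most abundant of the 48 transcripts at a mean of 421 CPM, measured 301, 405, 727 and 535 CPM in control and 203, 362, 529 and 306 CPM in siG9a. It was lower in 4 of 4 pairs while the groups overlapped widely, and replicate 3 was the highest and replicate 1 the lowest library of each group. Its log2 change was −0.50 ± 0.14 (SE), with a limma adjusted p of 0.0214 in the paired fit and 0.564 without the block. The change was −0.51 without the replicate 3 pair, with a paired limma adjusted p of 0.0837, and the call was also lost without pair 1 or pair 4 and with quantile normalization (0.0603). MCM5 measured 101, 165, 186 and 236 CPM in control and 82.02, 123, 174 and 106 CPM in siG9a. It was also lower in 4 of 4 pairs, with a log2 change of −0.49 ± 0.17 (SE) and a paired limma adjusted p of 0.0552, and it was called with median-ratio scaling in the paired fit. MCM2 measured 52.8, 51.04, 116 and 49.3 CPM in control and 61.4, 61.7, 117 and 82.01 CPM in siG9a. It was higher in 4 of 4 pairs with overlapping groups, with a log2 change of 0.30 ± 0.17 (SE) and a paired limma adjusted p of 0.282. MCM3 (0.26), MCM6 (−0.27) and MCM7 (−0.18) were not called. The ratio of MCM4 to MCM2 reads was 5.70, 7.94, 6.25 and 10.8 in control and 3.30, 5.86, 4.52 and 3.73 in siG9a. It was lower in 4 of 4 pairs, in a comparison chosen after the values were seen, and siG9a replicate 2 was above control replicate 1.

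Of the 9 genes of the clamp, its loader and RPA, 2 rose in the paired fit and 0 fell, a share of 22.2% beside the background of 11.4% in either direction. With the block, edgeR called 1 of the 9 (11.1%, background 11.3%) and DESeq2 0 (background 8.08%). RPA3 (ENSG00000106399), the smallest subunit of the single-strand binding complex, measured 32.2, 23.7, 41.8 and 34.3 CPM in control and 76.3, 36.9, 48.5 and 49.9 CPM in siG9a. Only siG9a replicate 2 fell inside the control range. Its log2 change was 0.64 ± 0.20 (SE), with a limma adjusted p of 0.0390 in the paired fit and 0.363 without the block, and the call was lost without pair 1, 2 or 4. RFC4 (ENSG00000163918), a clamp loader subunit, measured 93.2, 131, 168 and 125 CPM in control and 127, 169, 252 and 165 CPM in siG9a. It was higher in 4 of 4 pairs with overlapping groups, and its log2 change was 0.44 ± 0.15 (SE) with a limma adjusted p of 0.0476 in the paired fit and 0.508 without the block. The RFC4 call was lost without any single pair, with median-ratio scaling in the paired fit (limma adjusted p 0.0549) and in both count models with the block (adjusted p 0.0571 in edgeR and 0.106 in DESeq2). Both genes share exonic positions with antisense neighbours, RPA3 with UMAD1 and RFC4 with EIF4A2. RPA1 (0.30) and RPA2 (0.25), the other RPA subunits, were not called. PCNA, the clamp itself, measured 48.7, 43.8, 46.7 and 63.4 CPM in control and 120.2, 39.95, 73.1 and 44.7 CPM in siG9a. In siG9a, replicates 1 and 3 were above every control library, replicate 2 was below every one and replicate 4 above only control replicate 2, and the paired limma adjusted p was 0.386. The loader subunits RFC1, RFC2, RFC3 and RFC5 had log2 changes between −0.11 and 0.26 and were not called.

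**Figure D2:**
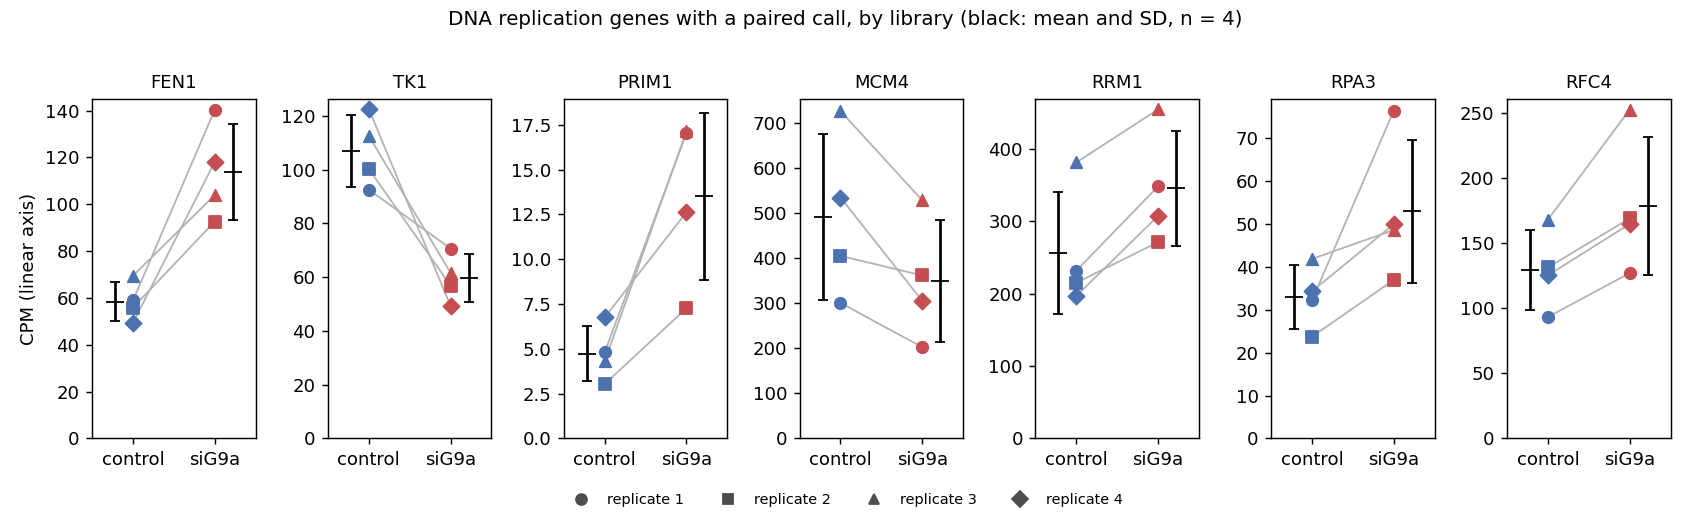
CPM (linear axis from 0) of the 7 genes called in the paired fit, in each library, with grey lines joining same-numbered libraries and black bars for the mean and SD (n = 4). FEN1, TK1 and PRIM1 separate the groups, whereas MCM4, RRM1, RPA3 and RFC4 overlap and shift within every pair.

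No gene of origin recognition, licensing, helicase activation or chromatin assembly was called in either fit (background 0% without the block and 11.4% with it). These groups are too small to read an absence of calls against that background. ORC4 had the smallest unadjusted p of the 6 ORC genes. It measured 8.91, 13.98, 19.7 and 15.1 CPM in control and 22.7, 13.9, 18.8 and 21.2 CPM in siG9a, with overlapping groups and a paired limma adjusted p of 0.376. ORC1, ORC2, ORC3, ORC5 and ORC6 had log2 changes between −0.05 and 0.19. GMNN, the inhibitor of licensing, measured 10.97, 25.5, 59.6 and 29.1 CPM in control and 32.5, 30.3, 53.1 and 29.8 CPM in siG9a. Control replicate 1 was low and both replicate 3 libraries high, and the paired limma adjusted p was 0.324. The loaders CDC6 (0.18) and CDT1 (0.16) were not called, with paired 95% intervals of the log2 change inside −0.18 to 0.53. CDC45, which joins the helicase at firing, measured 8.91, 9.72, 22.8 and 14.5 CPM in control and 10.8, 17.6, 29.1 and 11.5 CPM in siG9a, again highest in replicate 3 of each group (paired limma adjusted p = 0.600). The other activation genes, MCM10, CDC7 and GINS1 to GINS4, had log2 changes between −0.10 and 0.16. CHAF1A, the large subunit of the histone chaperone CAF-1, measured 113, 188, 408 and 240.4 CPM in control and 105, 284, 441 and 261 CPM in siG9a. It varied more than 3-fold between libraries of a group, with a paired interval of the log2 change from −0.12 to 0.48. CHAF1B measured 4.80, 25.5, 60.3 and 20.8 CPM in control and 7.74, 23, 38.8 and 13.2 CPM in siG9a, with the same order of replicates 1 and 3.

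For most of the set, the change was smaller than the spread among control libraries. The SD of the 4 control log2 values was larger than the log2 change for 35 of the 48 (72.9%, against 64.9% of all genes tested). Replicate 3 was the highest library of both groups for 22 of the 48 (45.8%), and for 22.5% of genes at a mean of 5 CPM or more. The median excess of replicate 3 over the mean of the other 3 libraries was 0.46 (log2) in control and 0.52 in siG9a, where all genes tested had 0.01 and 0.00122. The excess was above 1 in both groups for 6 genes, namely CHAF1A, CHAF1B, GINS3, CDC45, RFC5 and POLE2. It was negative in both for 6, namely TYMS, RRM2, GINS1, GINS4, MCM6 and PRIM2. The summed level of the 48 genes was 3203, 3768, 5159.8 and 4068 CPM in control replicates 1 to 4 and 3784, 3845, 5223 and 3752 CPM in siG9a. Both replicate 3 libraries were the highest, and siG9a was above control in 3 of 4 pairs. These are the libraries low in rhabdomyosarcoma markers and high in neural ones, and the part of that difference in the replication values was not tested.

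Deviations from the group mean were compared between each gene and the mean of the other 47, over the 8 libraries, as a description of libraries that share depth and composition. The correlation had a median of 0.638, exceeded 0.7 for 22 genes and was negative for 7. These deviations include the excess of replicate 3 given above. No such correlation was computed for other genes, so the median cannot be read as particular to this set. The correlation was highest for GINS2 (0.960), GMNN (0.943) and ORC2 (0.935) and lowest for TYMS (-0.639) and RRM2 (-0.511). FEN1 (0.128), PCNA (0.129), PRIM1 (0.256) and RPA3 (0.264) followed the rest of the set weakly. So did uncalled genes such as POLD2 (0.0902), POLA2 (0.213) and POLA1 (0.269). Of the other called genes, TK1 had 0.461, RRM1 0.794, MCM4 0.846 and RFC4 0.874, so weak correlation was not a trait of the called genes.

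**Figure D3:**
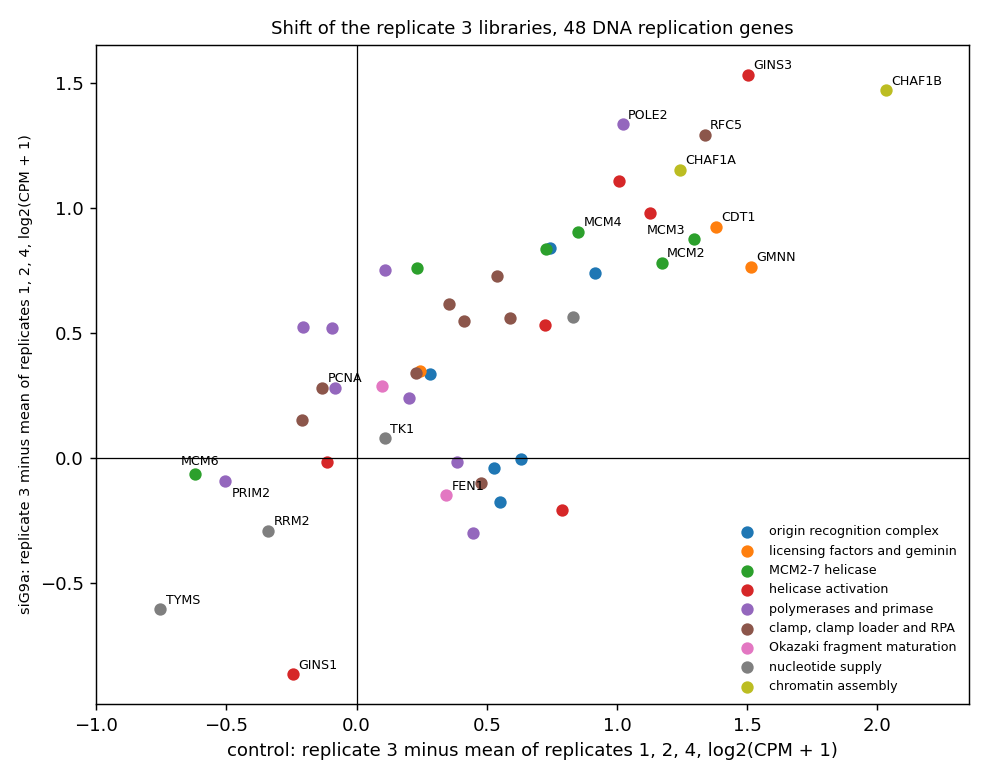
Excess of replicate 3 over the mean of replicates 1, 2 and 4 on log2(CPM + 1), in control (horizontal axis) and in siG9a (vertical axis), 1 point per gene coloured by role. In the upper right, 29 of 48 genes are positive in both groups, and TYMS, RRM2, GINS1, GINS4, MCM6 and PRIM2 are negative in both.

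The E2F-type letters described above were set beside the changes. Of the 15 genes with a match, the paired fit called 0, and their log2 changes lay between −0.29 and 0.40 with a median of 0.07. Of the 27 without a match, it called 5 (FEN1, TK1, PRIM1, RRM1 and RFC4), and the changes lay between −0.84 and 1.31 with a median of 0.16. The background in the same fit was 11.4% of all genes tested, and 15 genes are too few to read an absence of calls against it. The median of the mean levels was 64.6 CPM for genes with a match and 39.9 CPM for those without. MCM4 and RPA3, the remaining called genes, had no promoter entry. The difference between these counts was not tested, and genes without the letters in this window may still be switched on by E2F factors.

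**Figure D4:**
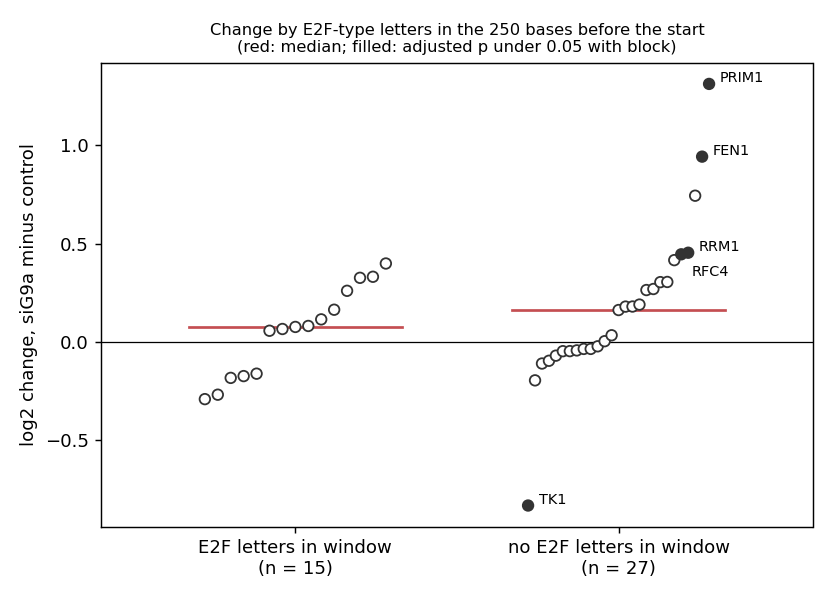
Log2 change (siG9a minus control) of the 42 genes with a promoter entry, split by the presence of the E2F-type letters, with the median in red and paired calls filled. All 5 filled points are among the 27 genes without the letters, and the 15 with them are too few to read an absence of calls.

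Related genes outside the set were read from 3 lists. Of 47 other replication genes, 2 rose and 1 fell in the paired fit (6.38%, background 11.4% in either direction). With the block, edgeR called 3 of them (background 11.3%) and DESeq2 0 (background 8.08%). Without the block, limma and edgeR called 0 (background 0%) and DESeq2 0 (background 2.59%), and 6 had an unadjusted limma p under 0.05 (background 12.5%). SLBP, the histone mRNA binding protein, measured 37.02, 24.3, 38.7 and 28.6 CPM in control and 71.7, 36.9, 56.5 and 51.04 CPM in siG9a (paired limma adjusted p = 0.0155). The helicase gene RECQL4 rose to a ratio of means of 1.37, and DTL, a substrate receptor of the ubiquitin ligase that removes CDT1, fell to a ratio of 0.671 (limma adjusted p 0.0494 and 0.0405). The RECQL4 call was lost in both count models with the block (adjusted p 0.0573 in edgeR and 0.131 in DESeq2). DNMT1, the partner of G9a at replication foci, measured 116, 153, 285 and 172 CPM in control and 146, 199.7, 303 and 183 CPM in siG9a. Its paired log2 change was 0.22 ± 0.14 (SE), with a 95% interval from −0.07 to 0.52, and replicate 3 was the highest library of both groups. UHRF1, which brings DNMT1 to newly copied DNA, measured 13.7, 14.6, 35.05 and 34.8 CPM in control and 13.4, 13.3, 21.1 and 18.9 CPM in siG9a, and its paired limma adjusted p was 0.306.

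Among 31 G1/S regulators, 8 rose and 2 fell in the paired fit (32.3%, background 11.4%, and 14.6% of genes at a mean of 5 CPM or more). This list was chosen with earlier results of these data known, so its share cannot be read as an excess over that background. With the block, edgeR called 10 of the 31 (32.3%, background 11.3%) and DESeq2 4 (12.9%, background 8.08%). Without the block, limma and edgeR called 0 (background 0%) and DESeq2 3 (9.68%, background 2.59%). At an unadjusted limma p under 0.05 without the block there were 8 of 31 (background 12.5%). Cyclin D2 (CCND2), which drives entry into the cycle, fell from 475 ± 179.7 to 141 ± 24.4 CPM (SD, n = 4 each, paired limma adjusted p = 3.13e-07), with no overlap between the groups. Cyclin D1 (CCND1) fell to a ratio of means of 0.533 and their kinase partner CDK6 rose to 1.76 (limma adjusted p 0.00449 and 9.40e-04 in the paired fit). CDKN1B, the inhibitor p27, rose from 12.2 ± 6.18 to 32.2 ± 7.24 CPM (SD, n = 4 each, paired limma adjusted p = 0.00178), also with no overlap. CDC25A, the phosphatase that activates CDK2, rose to a ratio of 1.69, and CDKN2D, an inhibitor of CDK4 and CDK6, measured 0.690, 1.82, 2.46 and 2.08 CPM in control, near the 3-read floor, and 8.25, 7.26, 9.13 and 5.74 CPM in siG9a (limma adjusted p 0.00152 and 0.00725 in the paired fit). Of 32 mitosis genes, 2 rose (PLK1 and AURKB) and 3 fell (BIRC5, CENPE and HMMR) in the paired fit (15.6%, near the background of 11.4%). With the block, edgeR called 6 of the 32 (18.75%, background 11.3%) and DESeq2 2 (6.25%, background 8.08%). Without the block, limma and edgeR called 0 (background 0%) and DESeq2 1 (background 2.59%), and 5 of 32 had an unadjusted limma p under 0.05 (background 12.5%). The ratio of means was 1.45 for the mitotic kinase PLK1, 1.42 for AURKB, 0.693 for the kinetochore motor CENPE and 0.592 for the spindle protein HMMR. BIRC5, or survivin, a subunit of the chromosomal passenger complex, measured 184, 179, 225 and 131 CPM in control and 94.9, 67.2, 96.5 and 106 CPM in siG9a, with no overlap (paired limma adjusted p = 4.69e-04). Without the replicate 3 pair, 12 genes of the 3 lists were called in the paired fit, against 18 with it. The median log2 change was 0.19 for the other replication genes, 0.25 for the G1/S regulators and 0.08 for the mitosis genes, beside 0.08 for the 48.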

How the data were processed

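QuantSeq 3′ libraries from 4 control and 4 siG9a samples of Rh41 cells were compared. The deposited table gives CPM to 2 decimals per gene, which the authors computed from read counts with edgeR 3.28, after FastQC 0.11.8, Trim Galore, STAR 2.5.0a and HTSeq 0.8.0, per the submitters' processing notes. Those notes name GRCh38 and hg19, and which build the reads were aligned to is not given in the sources used here. Every nonzero CPM was a whole number of reads within a rounding tolerance of 0.005 CPM (100% of values in each library), so reads and library totals (1458825 to 1938665) were recovered. No value column was left unmapped.

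The main test was limma 3.58.1 (R 4.3.3) on log2(CPM + 1) with group alone, mean-variance trend and Benjamini-Hochberg adjustment over all 15092 genes whose mean reached 1 CPM. Adjusted p-values in the text are limma's unless another tool is named. The authors' CPM were used as deposited for this test. Alternatives were edgeR 4.0.16 and DESeq2 1.42.0 on the recovered reads, other pseudocounts, filters, scalings and weights, left-out libraries, and the replicate number as a block. The replicate numbers come from the sample titles. Deviations from the group mean correlated between same-numbered libraries at 0.500, 0.104, 0.673 and 0.130 for replicates 1 to 4 across 15092 genes, and between −0.516 and 0.144 for other pairings. All 4 exceeded 0.1, and the numbers were therefore treated as pairs. However, control replicate 2 with siG9a replicate 4 correlated at 0.144, above the 0.104 and 0.130 of same-numbered replicates 2 and 4. The correlations thus do not set pairs 2 and 4 apart from other pairings, and their pairing rests on the sample titles. Replicates differed by more than sampling noise (chi-square per degree of freedom 5.90 to 28.7). Intervals from reads are Wilson 95% intervals and cover counting error only. The fitting code was tested on simulated data.

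The genes described library by library are EHMT2, every replication gene with an adjusted p under 0.05 with or without the block or with non-overlapping groups, and, in each role group without one, the gene with the smallest unadjusted p. From the related lists they are at most 6 called genes per list, with DNMT1 and UHRF1. Other genes shown by library complete a complex or pathway. The genes, lists and tests were chosen with earlier results of these data known. GENCODE 29 (GRCh38) was used only to find overlapping genes, and promoters were RefSeq's on GRCh38.p14. Protein sequences were not used here.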

Additional observations from a re-analysis of the deposited data

Results flagged for a closer look

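Single libraries far from the other 3 of their group were looked for in the genes described and the full set, and 8 of 138 groups of 4 held one, where chance gives about 1 in 20, here 6.9. Replicate 3 was the distant library in 7 of the 8. In control, replicate 3 held 116.22 CPM of the helicase subunit MCM2, against 49.3 to 52.8 CPM in the others. Control replicate 3 also held 92.85 CPM of the clamp loader subunit RFC2, against 58.95 to 63.8 CPM. In siG9a, replicate 3 was high for ORC2 at 42.82 CPM (others 21.8 to 24.8), ORC6 at 55.38 CPM (others 31.5 to 33.8), geminin (GMNN) at 53.1 CPM (others 29.8 to 32.5) and the phosphatase CDC25A at 211.25 CPM (others 82.02 to 99.9). It was low for the polymerase alpha subunit POLA2 at 23.41 CPM, where the others held 28.9 to 29.2 CPM. The ribonucleotide reductase subunit RRM2 was high in siG9a replicate 1 at 174.35 CPM, and its other siG9a libraries held 93.5 to 96.2 CPM. Of these genes, CDC25A was the one called in the paired fit, and without control and siG9a replicate 3 its log2 ratios within pairs were 1.41, 1.10 and 0.51.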

How the results depend on the processing

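Counts of calls are given in the order all genes tested, the 48 replication genes and the 3 related lists, beside 0, 0 and 0 in limma without a block. With the replicate block they were 1717, 7 and 18 in limma, 1711, 6 and 19 in edgeR and 936, 3 and 6 in DESeq2. With the block and median-ratio scaling they were 1693, 7 and 18, and with quantile normalization 1688, 6 and 21, both settings chosen after seeing the data. Median-ratio scaling with the block lost RFC4 and gained MCM5 (4 higher and 3 lower), and quantile normalization with it lost MCM4 (5 higher and 1 lower), where the paired fit without these scalings had 5 higher and 2 lower of the 48. With the block and without pairs 1 to 4 in turn they were 972, 2 and 5, then 653, 4 and 8, then 1180, 3 and 12, then 1392, 3 and 15. Without the block, DESeq2 gave 292, 2 and 4, limma's array weights 436, 2 and 4, no filter 18, 0 and 1, and limma without both replicate 3 libraries 415, 1 and 3. Leaving out single libraries gave 0 to 300, 0 to 1 and 0 to 2, with the highest count of all genes without control replicate 3. The median log2 change of the 48 moved to 0.246 without control replicate 3 (range over single libraries left out 6.97e-04 to 0.246).

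The EHMT2 change became a call with the block at −1.10 in limma, −1.09 in edgeR, −1.12 in DESeq2, −1.11 with median-ratio scaling and −1.07 with quantile normalization, and at −0.96, −1.16, −1.01 and −1.27 without pairs 1 to 4. Over 28 alternatives each, FEN1 kept its direction (0.84 to 1.07), as did TK1 (−0.99 to −0.68) and PRIM1 (0.90 to 1.56). Changes of uncalled genes turned sign for GMNN (−0.00347 without control replicate 1), CDC45 (−0.00868 without siG9a replicate 3) and CHAF1A (−0.13 and −0.11 without these libraries), and the cause was not tested. Over single libraries left out, GMNN reached 0.78, CDC45 0.52 and CHAF1A 0.58 at the highest.

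Every call of a replication gene rests on treating the replicate numbers as pairs, except FEN1 and TK1 in DESeq2 and with array weights and FEN1 where control replicate 3 or both replicate 3 libraries were left out. At 1458825 to 1938665 reads, genes below about 2.06 CPM rest on 3 reads or fewer in the shallowest library, and PRIM1 and POLE2 rest on few reads.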
